A study of Danio rerio with 16 samples.

Results

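The genes described here encode the pore-forming and auxiliary subunits of potassium, sodium and calcium channels of the voltage-gated superfamily and its relatives. They were taken from the count table by symbol, as every row that starts with kcn, with scn and a digit, or with cacna1, cacna2d, cacnb or cacng, leaving out 1 gene. The rule gave 170 genes of 36109, of which 111 encode potassium, 14 sodium and 45 calcium channel subunits. By structure they comprised 50 voltage-gated potassium alpha subunits, 24 inward rectifiers, 20 two-pore domain channels, 7 calcium- or sodium-activated channels, 10 potassium auxiliary subunits, 8 sodium alpha and 6 sodium beta subunits, and 16 calcium alpha1, 6 alpha2delta, 7 beta and 16 gamma subunits.

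RNA was sequenced from zebrafish at 24 and 48 hours post fertilisation (hpf) in 4 groups of 4 libraries. At each age, wild-type siblings without treatment were set against knockouts of lipf and pla2g15 made with CRISPR/Cas9, named siblings and mutants below, and no group carried another allele or agent per the labels. lipf encodes a gastric lipase and pla2g15 a lysosomal phospholipase. The sample labels call the material body and the series text whole embryos, and nothing says how many embryos, clutches or founders stand behind a library. The p-values below therefore speak for the spread among these 16 libraries alone, part of which may be technical.

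A voltage-gated channel opens its pore when the membrane potential changes and so shapes the action potential. Sodium alpha subunits carry the upstroke, Kv potassium channels repolarise the membrane, and inward rectifiers and two-pore domain channels set the resting potential. Calcium alpha1 subunits couple the action potential to transmitter release in neurons and to contraction in muscle, and alpha2delta, beta and most auxiliary subunits adjust the number and gating of the pores. In the zebrafish embryo, muscle and the first spinal neurons are active by the earlier age studied here, and the brain, the retina and the heart mature during the following day. Many channel genes exist as a and b copies that stem from the genome duplication of teleost fish.

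Libraries held between 35.9 and 50.5 times 1e6 counts. lipf checked the labels: no mutant library reached a sibling library of the same age, with 14 ± 7.62 CPM (SD, n = 4) against 1.51 ± 0.723 at 24 hpf (log2 fold change -3.22, edgeR adjusted p = 0.00119) and 22.8 ± 6.62 against 2.41 ± 0.431 at 48 hpf. CPM are counts per 1e6 counts of a library after TMM scaling. pla2g15 did not pass the test at either age (log2 fold change -0.40 and -0.50, edgeR adjusted p = 0.71 and 0.468). Markers of neurons and of skeletal muscle were detected in every library. Heart muscle markers were not even: myl7, a cardiac myosin light chain, ran from 35.6 to 51 CPM in the 8 libraries of 24 hpf, but at 48 hpf it was 3.27 in sibling replicate 2 and 0.14 in mutant replicate 4, against 11.1 to 20.1 in the other 6. Markers of the yolk syncytial layer, the cell layer that takes up yolk, varied widely at 24 hpf, with a mean log2 CPM over the list of 4.57 ± 1.91 (SD, n = 4) in siblings and 3.97 ± 2.59 in mutants.

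Of the 170 channel genes, 157 passed the filter on low counts, namely 103 potassium, 14 sodium and 40 calcium channel genes. The other 13 were 8 potassium channel genes, among them kcna1b, kcna10a, kcnj12a and kcnk3a, and the 5 calcium channel gamma subunits cacng1b, cacng3a, cacng5a, cacng5b and cacng7b, and of these 13 kcna10a had no read in any library. At a group mean of at least 1 CPM, 90 members were detected in siblings and 94 in mutants at 24 hpf, and 129 in each genotype at 48 hpf. The summed level of all members lay between 795 and 902 CPM in sibling libraries and between 753 and 865 in mutant libraries of 24 hpf. At 48 hpf it lay between 1543 and 1742 in siblings and between 1356 and 1622 in mutants, so that the ages did not overlap and the genotypes did. In these whole-tissue libraries more cells of a type and more RNA per cell cannot be told apart.

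The first comparison asked how the channel genes changed between 24 and 48 hpf in wild-type siblings. Most rose. By the quasi-likelihood test of edgeR, fitted across all genes with Benjamini-Hochberg adjustment and calls made under 0.05, 98 of 157 members were higher at 48 hpf and 13 were lower. Over all 24300 genes tested, 34.1% were called higher and 29.2% lower. The median log2 fold change was 1.26 over the members and 0.06 over all genes. Each of the 11 classes had members that were called higher, and the counts differed between them: 33 of 46 voltage-gated potassium alpha subunits, 9 of 10 potassium auxiliary subunits, 5 of 6 sodium beta subunits and 9 of 11 calcium gamma subunits were called higher, but only 9 of 23 inward rectifiers and 3 of 8 sodium alpha subunits.

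**Figure D1:**
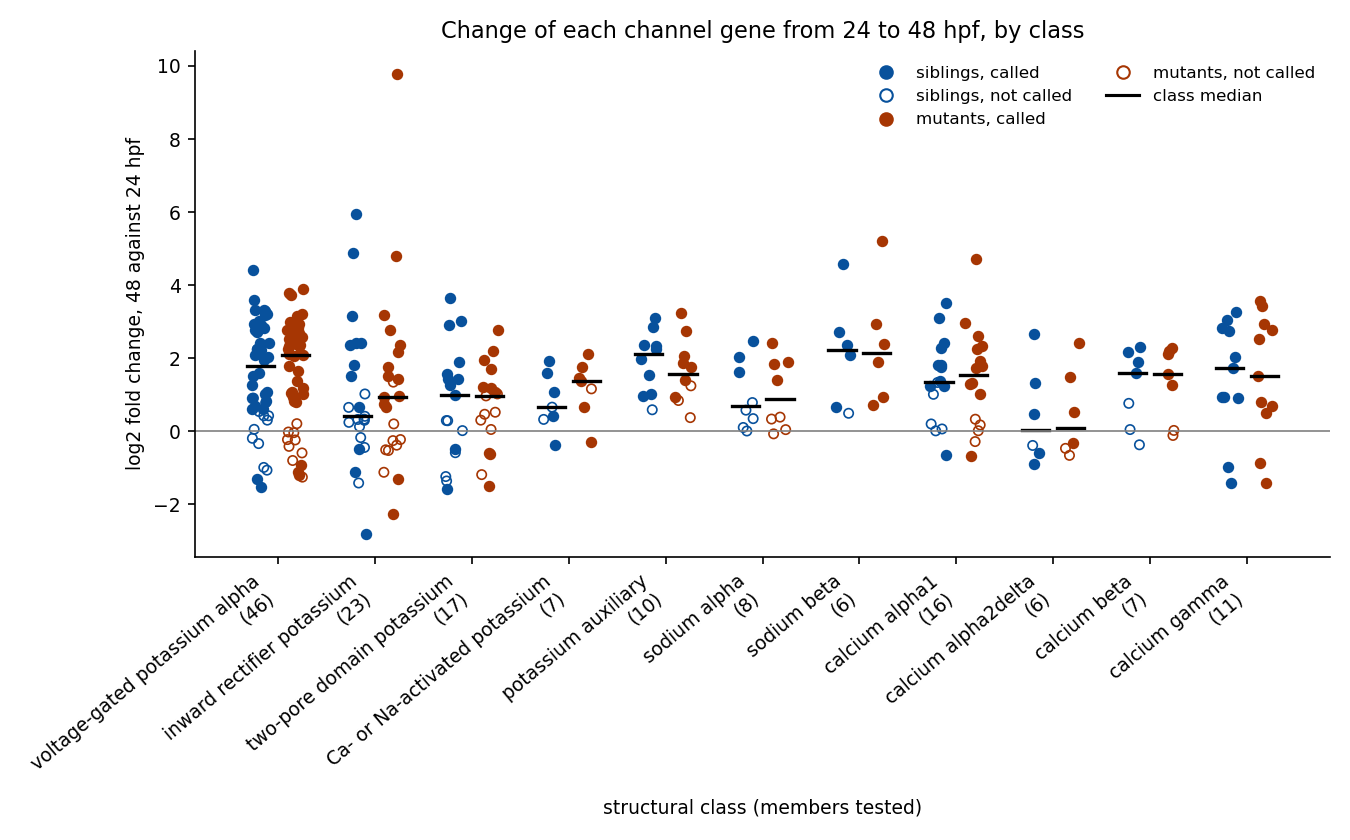
Each point is the log2 fold change of 1 channel gene from 24 to 48 hpf (y axis) within its structural class (x axis, with the members tested), in siblings (blue) and mutants (brown); filled points were called and black bars are class medians. Most points lie above 0 in both genotypes, and the class medians in siblings run from 0.03 for calcium alpha2delta subunits to 2.22 for sodium beta subunits; the value of kcnj10a in mutants, the topmost point, depends on the fit because no read was counted in mutants at 24 hpf.

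Among the 8 sodium channel pores, 3 known from neurons rose, a share near the 34.1% of all genes called higher in siblings. scn8aa encodes the Nav1.6 pore of axons, and it measured 23.1, 24.1, 22.4 and 20.4 CPM in the siblings of 24 hpf and 103, 88, 89.4 and 85.7 CPM in those of 48 hpf. The ages did not overlap, and the rise was 4.07-fold (log2 fold change 2.03, SE 0.12, edgeR adjusted p = 8e-11). Its paralog scn8ab rose 3.09-fold, from 12.2 ± 0.957 to 37.7 ± 2.35 CPM (SD, n = 4). scn1lab, a Nav1.1-type pore whose loss causes seizures in zebrafish larvae, measured 7.89, 5.18, 5.45 and 6.12 CPM at 24 hpf and 38.4, 30.8, 35.7 and 30.9 CPM at 48 hpf. It was higher in every library of the later age, by 5.51-fold (edgeR adjusted p = 9e-11). Its copy scn1laa did not pass the test, at 0.789 ± 0.144 and 1.17 ± 0.375 CPM.

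The muscle and cardiac sodium pores gave no call in siblings. scn4ab, a pore of skeletal muscle, measured 9.04 ± 1.53 CPM at 24 hpf and 9.69 ± 1.01 CPM at 48 hpf, with overlapping libraries. scn5lab, related to the cardiac pore of mammals, measured 1.08 ± 0.0956 and 1.37 ± 0.201 CPM, and scn12aa measured 0.798 ± 0.445 and 0.801 ± 0.183 CPM. scn4aa measured 0.664 ± 0.358 and 1.15 ± 0.394 CPM (edgeR adjusted p = 0.15).

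The sodium beta subunits are single-pass proteins that bind the pore and act as adhesion molecules. They rose in 5 of 6 cases, against 34.1% of all genes called higher. scn4ba measured 1.01, 0.674, 0.742 and 0.586 CPM in siblings at 24 hpf and 18.5, 17.5, 18.9 and 17.8 CPM at 48 hpf. All 4 later libraries stood far above the earlier ones, a 24.1-fold rise (log2 fold change 4.59, SE 0.20, edgeR adjusted p = 2.1e-12). scn2b rose from 4.31 to 28.2 CPM, scn1bb from 6.09 to 31.5, scn3b from 2.93 to 12.4 and scn1ba from 26.2 to 41.5. scn4bb was not called in siblings, at 4.42 and 6.2 CPM (edgeR adjusted p = 0.107).

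**Figure D2:**
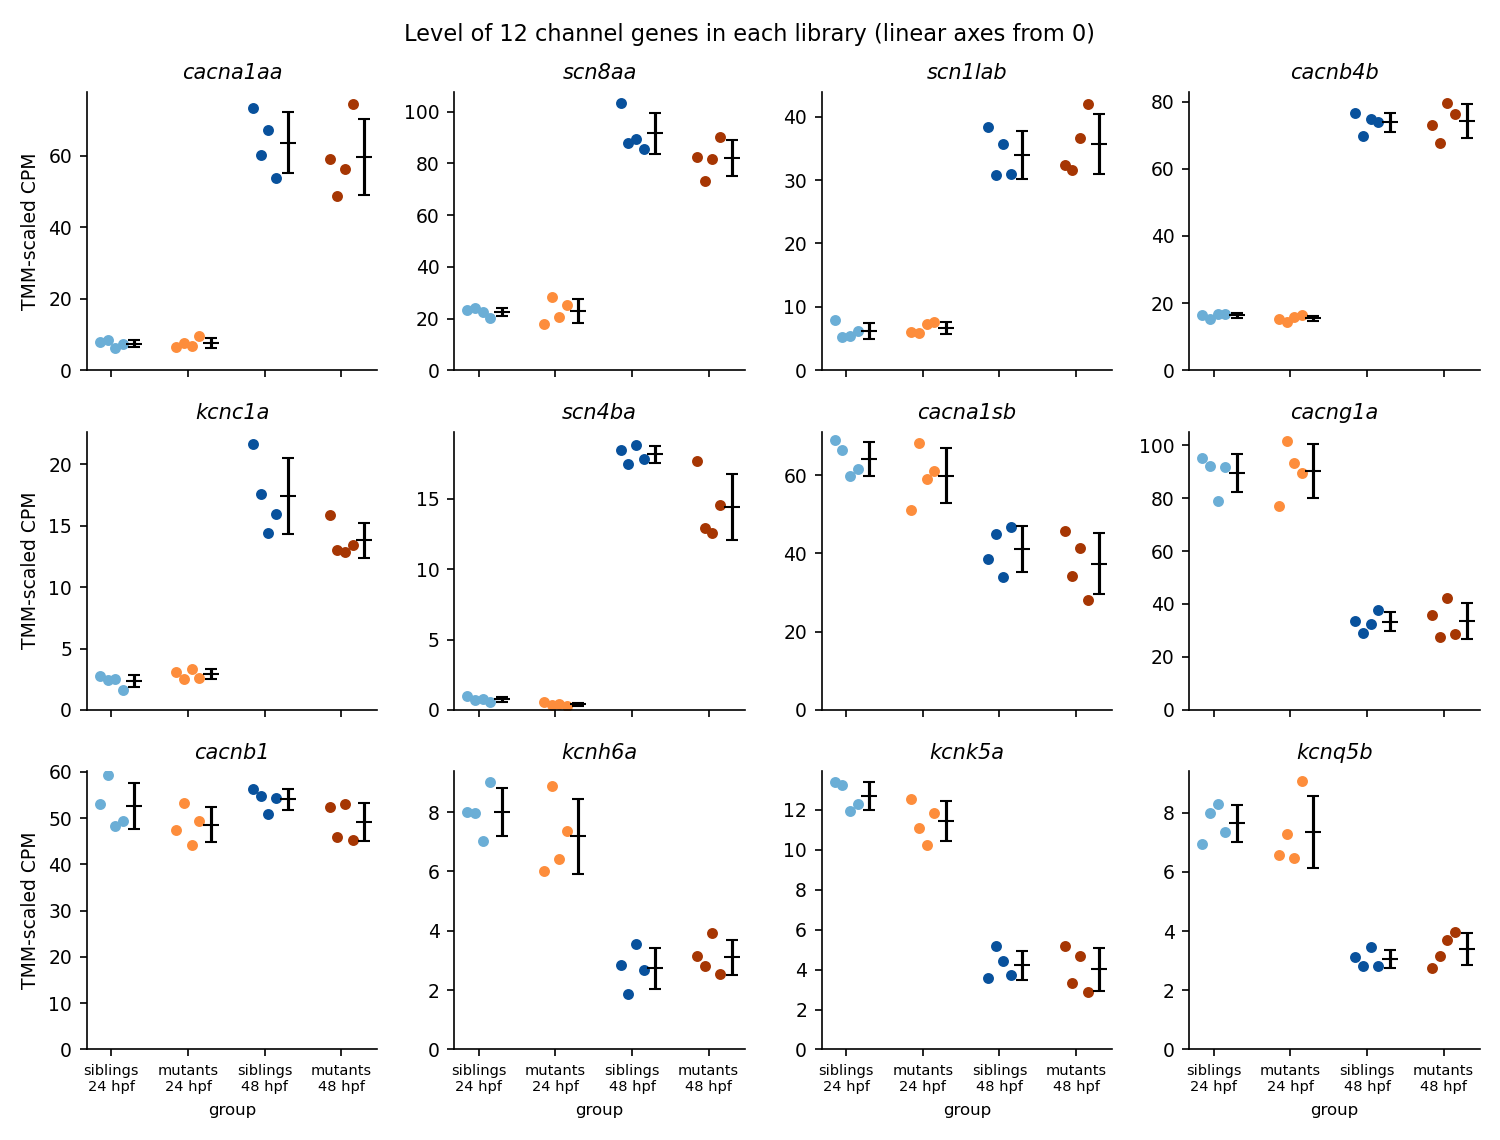
TMM-scaled CPM (y axis, linear from 0) of 12 channel genes in each of the 16 libraries, by group (x axis), with the group mean and SD in black (n = 4). The first 6 genes are several times higher at 48 hpf in both genotypes, cacnb1 stays between 44.3 and 59.4 CPM in all libraries, and the other 5 are lower at 48 hpf.

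Among the calcium channel pores, those of presynaptic terminals rose. cacna1aa encodes the P/Q-type pore that triggers transmitter release, and measured 7.84, 8.42, 6.19 and 7.48 CPM at 24 hpf and 73.4, 60.1, 67.1 and 53.7 CPM at 48 hpf in siblings. No library of one age reached the other, and the rise was 8.5-fold (log2 fold change 3.09, SE 0.16, edgeR adjusted p = 1.3e-11). Its copy cacna1ab rose 4.8-fold and the N-type pores cacna1ba and cacna1bb rose 2.36-fold and 3.48-fold. The R-type pore cacna1ea rose from 0.214 ± 0.117 to 2.5 ± 0.413 CPM. The L-type pores cacna1c and cacna1da rose 3.49-fold and 2.35-fold, the retinal L-type pore cacna1fb 5.3-fold and the T-type pore cacna1g 3.37-fold. cacna1db, cacna1ha and cacna1hb did not pass the test, with log2 fold changes of 0.01, 0.19 and 1.33.

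The auxiliary calcium channel subunits divided in the same comparison. cacnb4b, a beta subunit of neurons, measured between 15.4 and 16.9 CPM at 24 hpf and between 69.8 and 76.8 CPM at 48 hpf in siblings. Its libraries were close together within each age, and it rose 4.5-fold (log2 fold change 2.17, SE 0.07, edgeR adjusted p = 6.5e-14). cacnb2a, cacnb3a and cacnb3b rose 3.73-fold, 4.89-fold and 3-fold. The gamma subunits cacng2a, cacng3b, cacng7a and cacng8a, which in mammals are known as partners of AMPA-type glutamate receptors, rose 6.69-fold, 7.01-fold, 4.04-fold and 9.65-fold. Not every gamma subunit of this kind rose as much: cacng4b had a log2 fold change of 0.94, and cacng4a was called lower, at -0.98. The alpha2delta subunits cacna2d2a and cacna2d2b rose 2.5-fold and 6.28-fold.

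The subunits of the skeletal muscle calcium channel did not follow this pattern. cacna1sb encodes an L-type pore that acts as the voltage sensor of muscle contraction. It measured 69.1, 66.5, 59.7 and 61.5 CPM in siblings at 24 hpf and 38.5, 44.8, 34 and 46.8 CPM at 48 hpf. Every later library was lower, by 1.56-fold (log2 fold change -0.65, SE 0.13, edgeR adjusted p = 0.000395). cacng1a, the gamma subunit of the same complex, measured 95.2, 92.2, 78.9 and 91.8 CPM and then 33.6, 29.1, 32.6 and 37.8 CPM. That fall of 2.69-fold separated the ages completely (log2 fold change -1.43, SE 0.13, edgeR adjusted p = 1.8e-08). cacna2d1a, the alpha2delta subunit of muscle, fell 1.51-fold, from 78.7 ± 11.9 to 52.2 ± 7.3 CPM. The muscle beta subunit cacnb1 measured 52.5 ± 5 and 54.1 ± 2.26 CPM and gave no call (log2 fold change 0.04, SE 0.08). The other muscle gamma subunits went the opposite way, cacng6a rising 1.86-fold and cacng6b 1.92-fold.

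Gene lists of the surrounding machinery gave the following counts in siblings, against 34.1% of all genes called higher and 29.2% lower. Of 11 partners of synaptic release such as the rims and unc13 genes, all 11 were called higher at 48 hpf, and of 16 genes of the axon initial segment and the node, 15 were higher and 1 lower. All 23 tested neuron markers were higher, with a median log2 fold change of 2.31. Of 26 skeletal muscle genes 16 were higher and 9 lower, of 17 partners of excitation-contraction coupling 10 were higher and 5 lower, and of 9 genes of the neuromuscular junction 1 was higher and 6 lower. The mean log2 CPM of the neuron list was 4.5 ± 0.0293 (SD, n = 4) at 24 hpf and 6.8 ± 0.0374 at 48 hpf, and its part in the rise of the channel genes was not tested.

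The voltage-gated potassium channels that repolarise fast-firing neurons rose strongly. kcnc1a, a Kv3-type pore, measured 2.78, 2.41, 2.51 and 1.62 CPM in siblings at 24 hpf and 21.7, 17.6, 14.4 and 16 CPM at 48 hpf. The lowest library of the later age was far above the highest of the earlier, and the rise was 7.47-fold (log2 fold change 2.90, SE 0.17, edgeR adjusted p = 1.1e-10). The Kv3-type pores kcnc2 and kcnc1b rose 9.93-fold and 3.02-fold. kcna1a, a Kv1-type pore of axons, rose 7.78-fold, and kcna2a and kcna2b rose 3.85-fold and 1.87-fold. The A-type pores kcnd2 and kcnd3 rose 8.01-fold and 4.71-fold, and kcnip3a and kcnip3b, of the family of calcium-binding proteins that attach to A-type channels, rose 7.18-fold and 8.63-fold.

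Among the KCNQ pores, which carry the slow M-current that damps repetitive firing, kcnq3 and kcnq5a rose 5.28-fold and 2.02-fold. kcnq5b fell. It measured 6.94, 7.98, 8.31 and 7.35 CPM at 24 hpf and 3.12, 2.83, 3.46 and 2.81 CPM at 48 hpf in siblings. The ages were apart in every library, with a fall of 2.5-fold (edgeR adjusted p = 7.9e-07). kcnb2, a delayed rectifier, had a log2 fold change of -0.34 and did not pass the test.

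kcnh6a encodes the zebrafish relative of the human ERG channel that repolarises the heart. In siblings it measured 8, 7.96, 7.03 and 9.02 CPM at 24 hpf and 2.83, 1.87, 3.57 and 2.68 CPM at 48 hpf, and in mutants 6.03, 8.89, 6.42 and 7.38 CPM and then 3.16, 2.81, 3.92 and 2.54 CPM. Every library of the later age was below every library of the earlier one, by 2.92-fold in siblings (log2 fold change -1.54, SE 0.20, edgeR adjusted p = 2.1e-06). Heart muscle markers moved with it. Of 17 tested, 12 were called lower and 3 higher in siblings, their summed level fell from a range of 280 to 327 CPM to one of 106 to 205 CPM, and 1 or 2 of the 19 list genes in the table were at 0 in each library. Their part in the fall of kcnh6a was not tested. In mutant replicate 4 of 48 hpf, where myl7 was at 0.14 CPM, kcnh6a was at 2.54 CPM, against 2.81 to 3.92 CPM in the other mutant libraries. In sibling replicate 2 of 48 hpf, with myl7 at 3.27 CPM, kcnh6a was at 1.87 CPM. The other sibling libraries of that age held 2.68 to 3.57 CPM. Another ERG-type gene, kcnh2a, was not called in siblings, at 2.38 and 2.08 CPM, and was called lower in mutants (log2 fold change -0.93, SE 0.22, edgeR adjusted p = 0.0012).

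The inward rectifiers were mixed in siblings, with 9 of the 23 tested called higher, 3 lower and 11 not called. Of all genes, 34.1% were called higher and 29.2% lower. kcnj10a, the Kir4.1-type channel that clears potassium in glia, had 8 reads over the 4 sibling libraries of 24 hpf and 557 at 48 hpf, at 3.83, 3.51, 2.68 and 3.46 CPM. All of the later libraries and only 3 of the earlier ones had reads (edgeR adjusted p = 5.1e-08). kcnj12b rose 29.5-fold, from 0.183 ± 0.0335 to 5.49 ± 0.8 CPM, kcnj3a, a G protein-gated channel, 8.97-fold, and kcnj8, a channel of mural cells that is regulated by ATP, 5.34-fold. kcnj11, the related ATP-sensitive pore of pancreas and muscle, fell 1.42-fold (17.9 ± 3.14 to 12.7 ± 1.76 CPM, edgeR adjusted p = 0.0257). That call was lost without sibling replicate 2 of 24 hpf or 1 or 3 of 48 hpf and with a yolk covariate (edgeR adjusted p from 0.0537 to 0.104). kcnj2a measured 14.8 ± 0.564 and 13.1 ± 0.847 CPM, and kcnj13, known from mutants with altered pigment pattern, 14.6 ± 3.21 and 17.9 ± 2.61 CPM, both without a call. kcnj1a.3 fell (log2 fold change -1.13, edgeR adjusted p = 0.0275), but its libraries overlapped, and kcnj1a.2 to kcnj1a.6 are near-identical tandem copies among which reads may have been split or dropped. Its call was lost without sibling replicate 3 of 24 hpf, without sibling replicate 2 or 4 of 48 hpf and without the 2 libraries poorest in heart markers (edgeR adjusted p from 0.0662 to 0.156).

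In the two-pore domain class, whose channels leak potassium at rest, kcnk10a rose 8.03-fold, and kcnk5a and kcnk6 fell. kcnk5a measured between 11.9 and 13.4 CPM in siblings at 24 hpf and between 3.56 and 5.17 CPM at 48 hpf. The ages did not overlap, and the fall was 3.02-fold (log2 fold change -1.59, SE 0.17, edgeR adjusted p = 2.5e-07). Its copy kcnk5b, whose gain of function gives long fins, measured 9.44 ± 0.942 and 9.52 ± 0.804 CPM. Among the calcium-activated channels, kcnn1a rose 3.79-fold, kcnma1a rose 1.33-fold and kcnn3 fell 1.31-fold. The auxiliary subunits kcnab1a and kcnab2a, which bind Kv1-type channels, rose 1.95-fold and 2.91-fold, and kcne4 rose from 0.129 to 0.672 CPM, a call lost without the 4 libraries poorest in yolk syncytial layer markers (edgeR adjusted p = 0.0507). Across the classes the 13 genes called lower in siblings were cacna1sb, cacna2d1a, cacna2d4a, cacng1a, cacng4a, kcnh6a, kcnj1a.3, kcnj2b, kcnj11, kcnk5a, kcnk6, kcnn3 and kcnq5b. Among these, kcnj2b had few sibling reads at either age and passed the filter only through the mutants of 48 hpf. The call of cacna2d4a was lost in 8 alternatives, among them those without sibling replicate 2 or 4 of 24 hpf or 2, 3 or 4 of 48 hpf (edgeR adjusted p from 0.0509 to 0.0783).

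The same comparison in mutants, which shares no library with that in siblings, gave 104 members called higher and 13 called lower, against 34.1% higher and 30.4% lower over all genes tested. The median log2 fold change was 1.34 over the members and 0.05 over all genes. 92 members were called higher in both genotypes, which is 93.9% of those called in siblings and 88.5% of those called in mutants. 10 were called lower in both, and 0 were called in opposite directions. These overlaps were not counted over all genes, so they are not read as a trait of the channel genes. Across the 157 members the log2 fold changes of the genotypes had a Pearson correlation of 0.898, as a description over genes that come from the same libraries, and over all tested genes it was 0.902.

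**Figure D3:**
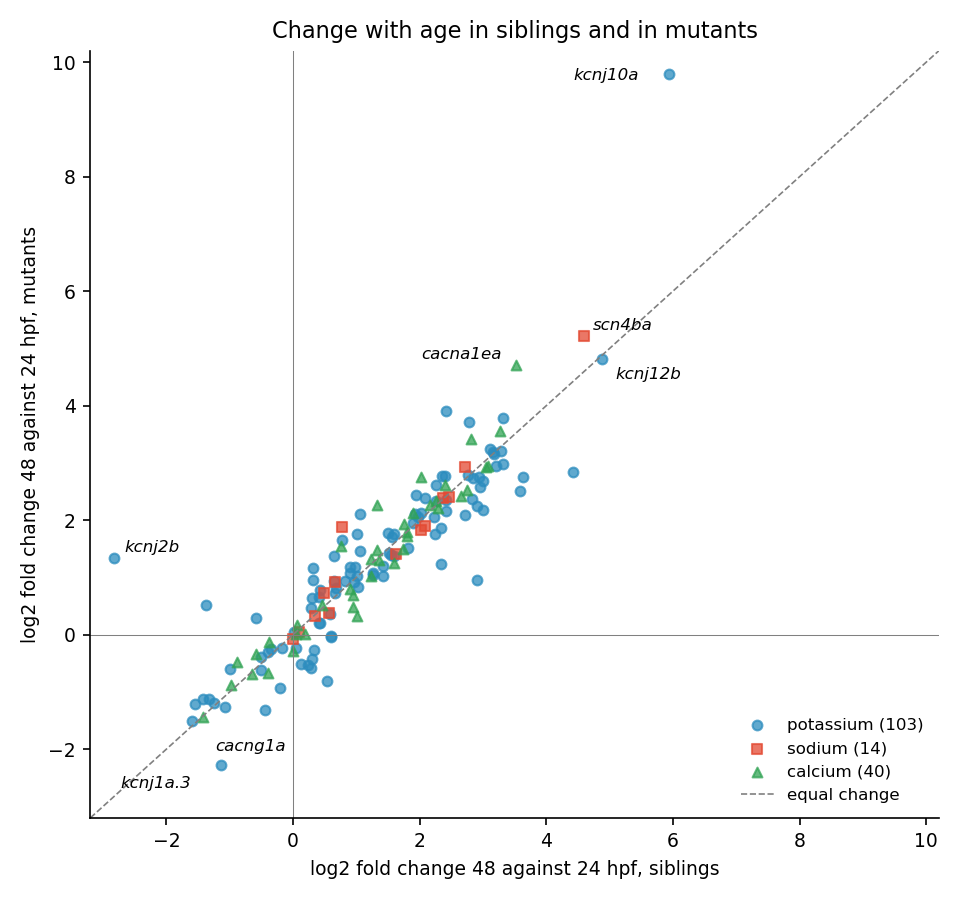
Log2 fold change from 24 to 48 hpf of each of the 157 tested channel genes in siblings (x axis) and in mutants (y axis), by ion, with a dashed line at equal change. The points follow the line, for example cacng1a at -1.43 in both genotypes and scn4ba at 4.59 and 5.22. The genes kcnj10a and kcnj2b, which stand away from the line, have 8 or fewer reads in at least 1 group.

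In mutants scn8aa rose to 82.3, 73.2, 81.7 and 90.2 CPM and cacna1aa to 59.1, 48.8, 56.3 and 74.4 CPM at 48 hpf, ranges that overlapped those of siblings. cacna1sb and cacng1a fell by 0.68 and 1.43 on the log2 scale. kcnj10a had 0 reads in mutants at 24 hpf and 478 at 48 hpf, so it was at least 144-fold higher against a floor of 3 reads over the group. The 6 members called higher in siblings and not in mutants were kcnab1b, kcnc4, kcnd1, kcne4, kcnk7 and kcnk15, and the 12 called in mutants and not in siblings were cacna1hb, cacnb4a, kcng1, kcng2, kcnh4b, kcnj1a.1, kcnj5, kcnj13, kcnj16, kcnn1b, scn4aa and scn4bb. Called lower in mutants and not in siblings were kcnh2a, kcnj1a.4 and kcnk1a, and in siblings and not in mutants cacna2d4a, kcnj2b and kcnj11. None of these differences passed the test of the difference itself. By the interaction of genotype and age 0 members were called higher and 0 lower by edgeR, against 0.486% and 0.519% of all genes, and at an unadjusted p under 0.05 there were 5 and 6, against 6.4% and 9.58%. The 4 smallest p were those of kcnj10a, kcnj2b, cacng4b and kcnc1a, with edgeR adjusted p from 0.137 to 0.169. DESeq2 called 0 members in either direction, against 1.91% and 1.79% of all genes, but 9 members had no adjusted p there and could not be called.

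Paralog pairs were then compared within each library. For 36 pairs of a and b copies that both passed the filter, the log2 ratio of the copies was set against age by an exact two-sided permutation test, with ages permuted within each genotype over 4900 assignments. In 23 pairs the ratio changed with age after Benjamini-Hochberg adjustment over the pairs. No share for pairs of other genes was computed to set beside this count. Of all genes tested, 34.1% were called higher and 29.2% lower with age in siblings. Only the change of a ratio is read here, since the copies differ in length. Among the 6 largest changes were those of cacnb2, kcnh5, kcnq5, kcnf1 and scn1l.

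The log2 ratio of cacnb2a to cacnb2b was 1.71 ± 0.143 (SD, n = 4) in siblings and 2.1 ± 0.524 in mutants at 24 hpf, and 3.97 ± 0.359 and 4.3 ± 0.437 at 48 hpf. The later libraries were all above the earlier ones, a 4.7-fold change of ratio (exact permutation p = 0.000408, the smallest that 4900 assignments can give here, and 0.00105 after adjustment), as cacnb2a rose and cacnb2b was not called. The ratio of kcnq5a to kcnq5b turned from -0.998 ± 0.209 to 1.31 ± 0.182 in siblings, so that the copies changed in opposite directions. The ratio of scn1laa to scn1lab fell by 1.99 on the log2 scale, with the b copy gaining on the a copy. The ratio of kcnf1a to kcnf1b fell by 2.20 and that of kcnh5a to kcnh5b by 2.23. Group means in these pairs went down to 0.2 CPM for kcnf1 and 0.146 CPM for kcnh5. kcnk5a lost 1.58 against kcnk5b, and scn8aa gained 0.42 on scn8ab. The 13 pairs that did not pass included kcnip3, cacng6 and cacng2, with changes of -0.20, 0.09 and -0.29. Within siblings alone, where 70 assignments allow no smaller p than 0.0286, 0 pairs passed after adjustment.

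**Figure D4:**
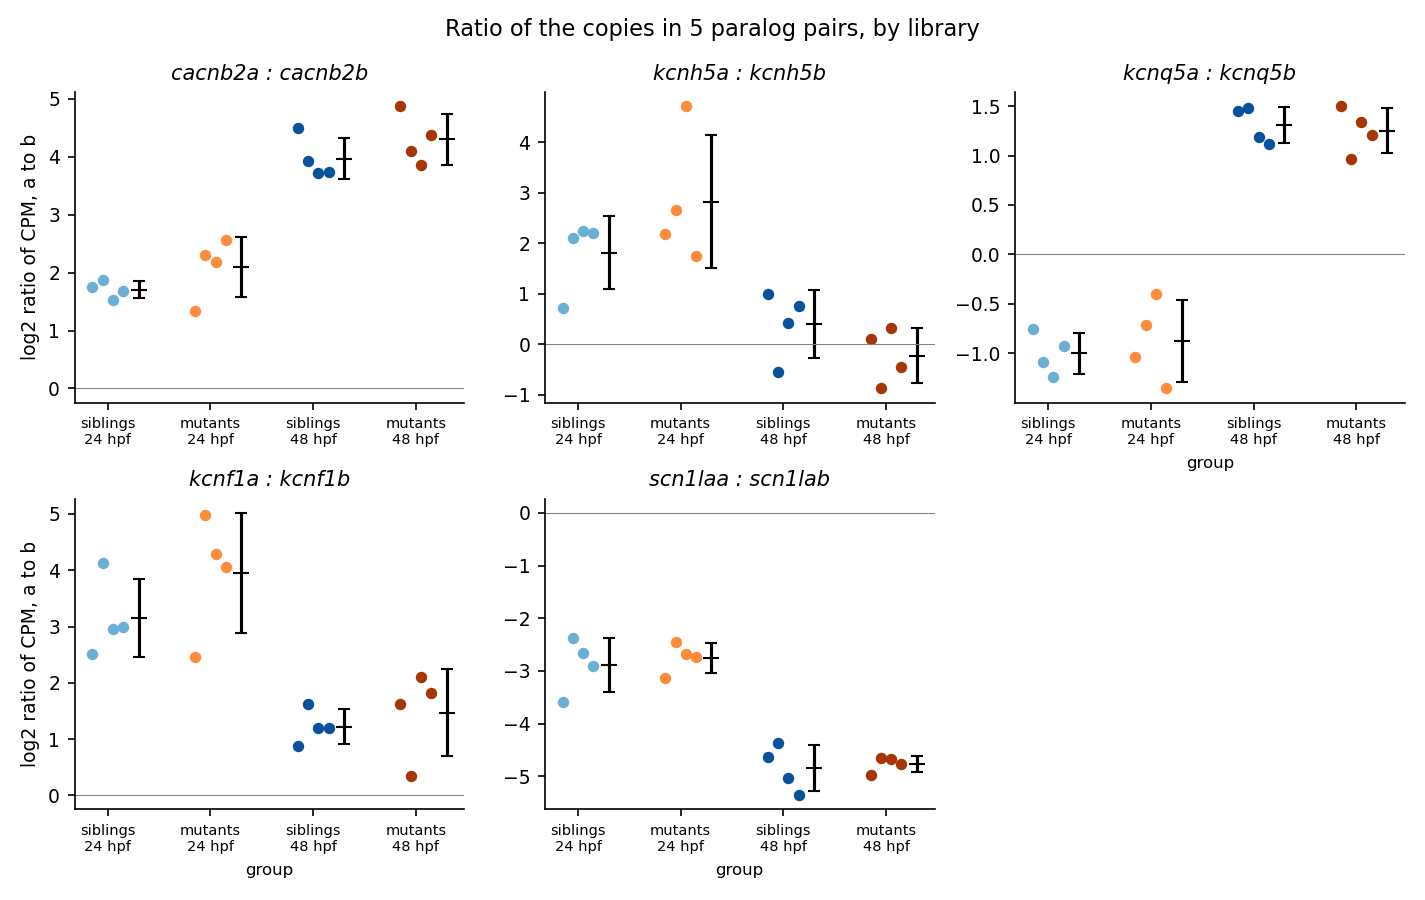
Log2 ratio of the CPM of the a copy to the b copy (y axis, different ranges per panel) in each library by group (x axis) for 5 of the 6 pairs with the largest change, with group mean and SD in black (n = 4). The libraries of 24 and 48 hpf stand apart in 4 panels, and in the kcnh5 panel 1 sibling library of 24 hpf lies among those of 48 hpf.

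The central comparison of the study asked what the loss of lipf and pla2g15 changed. At 24 hpf 0 of the 157 channel genes were called higher and 0 lower in mutants by edgeR, against 0.391% and 0.44% of all genes. Over all genes, these counts ran from 21 to 316 higher and from 40 to 146 lower with 1 library left out, against 95 and 107, and moved by over 1.5 times without sibling replicate 1, 3 or 4 or mutant replicate 1, 2 or 3 of 24 hpf. Without the 4 libraries poorest in yolk syncytial layer markers they were 6 and 15. At an unadjusted p under 0.05 there were 6 higher and 15 lower members, against 6.99% and 6.74% of all genes. DESeq2 called 0 members higher and 4 lower, against 1.53% and 1.85% of all genes, and gave 9 members no adjusted p. In 2 members every mutant library was above every sibling library and in 5 every one was below, against 4.17% and 4.35% of all genes, so that neither share of the members was larger. The median log2 fold change was -0.07 over the members and -0.0033 over all genes, and 92 members had a negative and 65 a positive value. Of the 30 members with a mean of at least 10 CPM over all libraries, the 95% interval of the genotype effect lay within a 1.5-fold change for 24 and within a 2-fold change for all 30. Of all 157 members it lay within a 2-fold change for 93.

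The 6 members with the smallest p at 24 hpf all had lower means in mutants. scn4ba measured 1.01, 0.674, 0.742 and 0.586 CPM in siblings and 0.556, 0.367, 0.411 and 0.242 CPM in mutants. The mutant libraries were all lower (log2 fold change -0.96, SE 0.23), but the edgeR adjusted p was 0.0607. cacng3b measured 2.12, 1.66, 2.23 and 1.49 CPM in siblings and 0.644, 0.42, 1.13 and 1.37 CPM in mutants, again without overlap (log2 fold change -1.05, SE 0.27, edgeR adjusted p = 0.0769). scn1ba stood at 26.2 ± 3.1 and 20.5 ± 1.87 CPM (SD, n = 4) and kcnma1a, the large-conductance calcium-activated potassium channel, at 27 ± 2.56 and 21.3 ± 1.48 CPM, with edgeR adjusted p of 0.0869 and 0.118. These 4 were the genes that DESeq2 called lower, at adjusted p between 0.00357 and 0.0415. cacng7a had a log2 fold change of -0.99 (edgeR adjusted p = 0.178). kcnj10a had 8 reads in siblings and 0 in mutants, with an edgeR adjusted p of 0.117. It was 2.8-fold lower against 3 reads over the group, a value that leaves out the counting error of the 8 reads. With sibling replicate 3 left out, kcnj1a.2 and kcnj1a.6 were called higher in mutants, subject to the uncertainty of these tandem copies. Leaving out 1 library also gave lower calls by edgeR. These were cacng3b without mutant replicate 4 (adjusted p = 0.0303), scn1ba without sibling replicate 4 (0.0421) and scn4ba without mutant replicate 1 (0.0458).

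At 48 hpf, 1 channel gene was called higher in mutants and 0 lower by edgeR, against 2.84% higher and 4.59% lower of all genes. Over all genes these counts ran from 358 to 737 higher and from 459 to 1256 lower with 1 library left out, against 691 and 1115, and moved by over 1.5 times without sibling replicate 2, 3 or 4 or mutant replicate 2 of 48 hpf. Unadjusted p values under 0.05 were found for 3 higher and 6 lower members, against 8.36% and 13.7% of all genes. DESeq2 called 0 members higher and 1 lower, against 4.23% and 6.13%, and gave 10 members no adjusted p. The mutant libraries lay entirely above in 2 members and entirely below in 8, against 5.7% and 8.46% of all genes. The median log2 fold change was -0.09 over the members and -0.04 over all genes. For each of the 30 members with a mean of at least 10 CPM the 95% interval lay within a 1.5-fold change, and for 108 of all 157 it lay within a 2-fold change. The neuron markers, by comparison, had 6 of 23 genes called lower in mutants at this age, with a mean log2 CPM of 6.8 ± 0.0374 in siblings and 6.57 ± 0.0732 in mutants (SD, n = 4; exact permutation p = 0.0286, adjusted p = 0.0508). In siblings and mutants, the mean log2 CPM was 5.03 ± 0.0482 and 5.25 ± 0.0354 for glia and myelin markers. For yolk syncytial layer markers it was 6.06 ± 0.247 and 5.32 ± 0.138. These lists had the same exact permutation p and adjusted p as the neuron list. Of the partner lists, 0 of 11 genes of synaptic release, 0 of 16 of the axon initial segment and 4 of 17 of excitation-contraction coupling were called, the 4 of them lower.

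**Figure D5:**
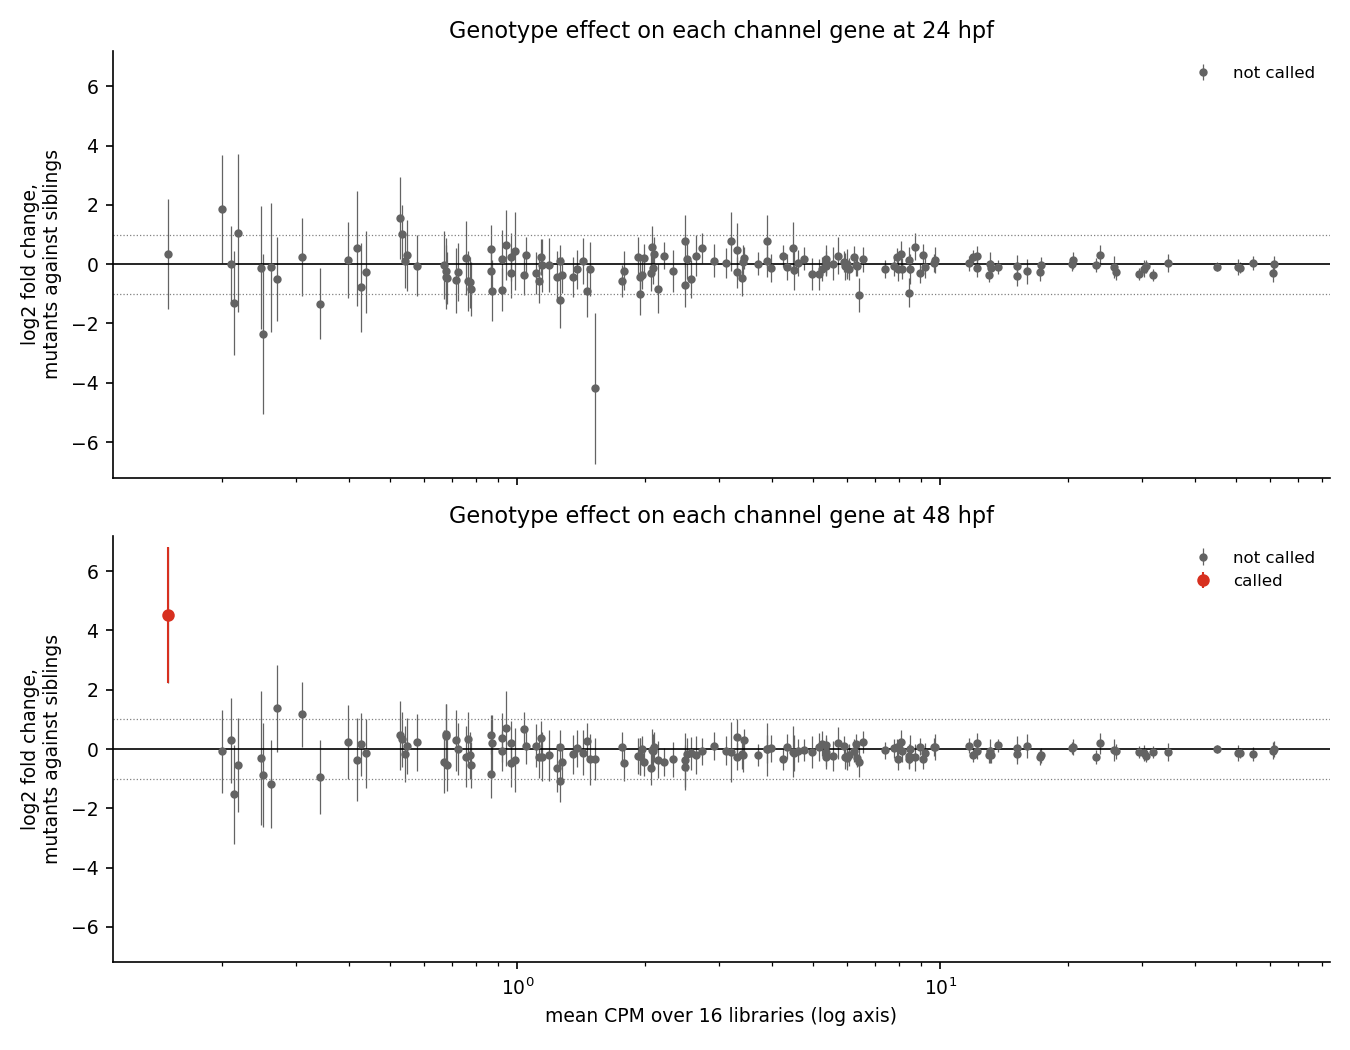
Log2 fold change of each of the 157 tested channel genes in mutants against siblings (y axis) with its 95% interval, against its mean CPM over 16 libraries (x axis, log scale), at 24 hpf (top) and 48 hpf (bottom); dotted lines mark a 2-fold change. Intervals narrow with the level, and the 1 called gene, kcnj2b at 48 hpf (red), is among the least abundant.

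The called gene was kcnj2b, a Kir2.1-type inward rectifier, and it rests on few reads. It had 2 reads over the 4 sibling libraries of 48 hpf, at 0, 0, 0 and 0.0541 CPM, and 62 over the mutant libraries, at 0.32, 0.317, 0.466 and 0.279 CPM. All mutant libraries were above all sibling libraries, and the ratio of pooled reads was 28.9 with a 95% counting interval from 7.68 to 244 (edgeR adjusted p = 0.0188). At 24 hpf it had 16 reads in siblings and 22 in mutants. The gene passed the filter on low counts only through the mutant libraries of 48 hpf, the group where it was high. Filter and call therefore rest on the same reads. Without a filter the edgeR adjusted p was 0.0324. The call was lost without sibling replicate 2 or 3 and without the 2 libraries of 48 hpf that were poorest in heart markers, at edgeR adjusted p from 0.0575 to 0.0783, and the stricter filter removed the gene.

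The next smallest p values belonged mainly to lower levels in mutants. kcnip3b measured 3.44, 3.34, 2.28 and 3.22 CPM in siblings and 1.33, 2.15, 0.847 and 1.54 CPM in mutants at 48 hpf. The groups did not overlap, with 2.09-fold lower values in mutants (log2 fold change -1.07, SE 0.35, edgeR adjusted p = 0.0728). DESeq2 and a fit of the 48 hpf groups alone called it, at adjusted p of 0.0315 and 0.0458. scn8ab measured 40.2, 38.6, 34.7 and 37.4 CPM in siblings and 33.3, 30.3, 29.6 and 32.2 CPM in mutants, which is lower in every mutant library but with a log2 fold change of only -0.27 and an edgeR adjusted p of 0.155. kcnh4a was the member of this set with higher values in mutants, at 1.21 ± 0.106 and 1.92 ± 0.4 CPM (edgeR adjusted p = 0.164). cacnb3b and kcnab2a had log2 fold changes of -0.63 and -0.23 and edgeR adjusted p of 0.185 and 0.187.

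A chromosome could be found for 163 of the 170 members. Of these, 14 lie on chromosome 12 or 25, those of lipf and pla2g15, and none of the 14 was called between genotypes at either age. Of all genes, 0.391% were called higher and 0.44% lower at 24 hpf, and 2.84% and 4.59% at 48 hpf. At such shares, 14 genes are too few to show a difference from all genes. Within groups the members scattered more than all tested genes at 24 hpf: the median SD of log2 CPM was 0.347 over the tested members and 0.217 over all tested genes in siblings, and 0.358 and 0.211 in mutants. At 48 hpf the values were 0.213 and 0.192 in siblings and 0.270 and 0.225 in mutants. Among genes with a mean of at least 1 CPM, the medians at 24 hpf were 0.273 and 0.172 in siblings and 0.292 and 0.168 in mutants. Neither comparison was matched for level.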

How the data were processed

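Messenger RNA was measured as whole-number read counts per gene, deposited by the authors for 16 libraries without normalization. Per the labels' protocols, total RNA was extracted with TRIzol. Per the submitters' processing notes, STAR 2.7.10b and featureCounts 2.0.6 were used with build GRCz11, besides FastQC 0.12.1 and Trim Galore 0.6.10. No label or header names the annotation, the strand setting or the treatment of multi-mapping reads.

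From these counts, filterByExpr kept 24300 genes and removed 11809. edgeR 4.0.16 in R 4.3.3 scaled them by TMM and tested 5 contrasts in 1 quasi-likelihood fit with a mean per group, two-sided, adjusted over all genes tested. Values per library and list means used log2 CPM with a prior count of 2. Standard errors were derived as the absolute log2 fold change over the square root of the F statistic. Intervals of genotype effects are 95% intervals from these and the fit's degrees of freedom. They are approximate, above all where a group has few reads. Counting intervals and floors (3 reads) cover counting error only. The smallest exact p of 4 against 4 libraries is 0.0286. Statistics were checked on simulated data. Chromosomes came from a RefSeq table of assembly GRCz12tu, matching 161 members by symbol and 2 by synonym.

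Named members were called genes or the 6 smallest p per genotype contrast, the extremes of each class with age, 5 of the 6 pairs with the largest change, and members with well known tissues. Others (kcnj12b, kcnj3a, kcnc2, kcnip3a, scn2b, scn3b, scn4bb, kcnk6) were chosen after their values were seen. Members, rules and the 16 lists (253 of 271 entries in the table) were chosen with earlier results of these data known. Alternatives were RLE and upper-quartile scaling, 2 filters, fits of only the groups compared, a replicate block, a yolk covariate, DESeq2 1.42.0, and each library left out. Of the genes matching the rule 1 is left out and a few members, included in all counts but that of outlying libraries, are not reported here by name, and 9 channel symbols written in capitals were not included.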

Additional observations from a re-analysis of the deposited data

Results flagged for a closer look

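In 310 groups of 4 libraries with at least 40 reads, 11 had a library far from the other 3, where chance alone gives about 1 in 20. At 24 hpf in siblings, replicate 4 was low for cacna2d2a (4.39 CPM) and scn1ba (21.6 CPM), and replicate 3 was low for cacna2d2b (0.793 CPM). At 24 hpf in mutants, replicate 1 was low for cacna2d2a (3.04 CPM), kcnq3 (2.05 CPM) and scn1laa (0.644 CPM), replicate 2 for kcnj8 (0.393 CPM) and replicate 3 for cacng2a (1.03 CPM). At 48 hpf, replicate 3 of the siblings was low for kcnip3b (2.28 CPM), and in mutants replicate 2 was low for kcnj10a (1.43 CPM) and replicate 3 was high for scn4ab (16 CPM, against 7.94 to 8.66 CPM in the other 3).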

How the results depend on the processing

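With age, the alternatives gave between 88 and 99 members called higher and between 9 and 14 called lower in siblings, within 1.5 times of the reported counts, and likewise in mutants. Among the named members, calls in siblings were lost for cacna2d4a in 8 alternatives, for kcnj11 in 4, for kcnj1a.3 in 4 and for kcne4 in 1, and were gained for cacnb4a in 3, cacna1hb in 2, and kcnb2 and scn1laa in 1 each. Between genotypes at 24 hpf, members called higher numbered 1 (kcnj1a.6) with the yolk syncytial layer score as covariate. Members called lower numbered 1 (scn4ba) with that covariate, 2 (scn4ba and cacng3b) with the replicate block and 4 with DESeq2. Over all 24300 genes the covariate gave 405 higher and 216 lower, against 95 and 107 in the main fit. The replicate block gave 86 and 87 over all genes, and DESeq2 373 and 449. Leaving out each library gave 0 to 2 higher and 0 to 1 lower. At 48 hpf the members called higher numbered 0 under the stricter filter, under DESeq2, which gave kcnj2b no adjusted p, and without the 2 heart-poor libraries, and 0 to 1 with each library left out. Members called lower numbered 1 (kcnip3b) under DESeq2 and in the fit of the 48 hpf groups alone. The block by replicate number moved no other count of members by over 1.5 times, but over all genes it called 526 higher and 802 lower at 48 hpf, and 55 and 42 in the interaction against 118 and 126, and same-numbered libraries shared only a number, with correlations of their deviations from -0.107 to 0.203. Within siblings only, 0 paralog pairs passed. Upper-quartile scaling split the calls over all genes at 48 hpf into 819 higher and 746 lower, against 691 and 1115. Leaving out the 4 yolk-poor or the 2 heart-poor libraries was chosen after seeing the data.

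Values near 0 without a call changed sign. In siblings with age, cacna1db was at -0.0285 under RLE and -0.0111 under upper-quartile scaling, -0.0194 without a filter, -0.0131 with the stricter one, -0.00506 with the replicate block, -0.0712 with the yolk covariate, -0.0294 under DESeq2, -0.0894 without the yolk-poor and -0.0399 without the heart-poor libraries. In the same order but for those not listed, kcnk5b was at -0.0235, -0.0045, -0.0133, -0.00634, -0.0172 (yolk covariate), -0.0232 (DESeq2) and -0.0227 (heart-poor left out), and scn12aa at -0.0232, -0.0116, -0.0142 (no filter), -0.0502, -0.0243, -0.492 and -0.0302. Without the yolk-poor libraries cacnb1 was at -0.0572 and kcnj13 at -0.00979, and without the heart-poor ones kcnf1a at -0.0109. With each library left out, cacna1db ran from -0.17 to 0.0797, kcnk5b from -0.0621 to 0.0581, scn12aa from -0.221 to 0.42, scn4ab from -0.0345 to 0.174, cacnb1 from -0.0214 to 0.105, kcnf1a from -0.127 to 0.196 and pla2g15 at 24 hpf from -0.976 to 0.0525. The heart list differed between genotypes at 24 hpf by -0.0114 with a prior count of 0.5 and -0.00525 under RLE, and the hair cell list by -0.0091 under RLE. The cause of these changes was not tested. Of the weakest members few reads limit what can be seen: a median tested member had 224 to 726 reads per group, and at 24 hpf the intervals of 64 members reached past a 2-fold change.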

Other observations

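Other cell types in which channel genes act changed with age as follows in siblings, with higher and lower calls by edgeR given in that order. Of 12 glia and myelin genes 7 and 3 were called, of 10 genes of smooth muscle and mural cells 8 and 0, of 12 genes of skin ionocytes 10 and 0, of 20 genes of the sodium and potassium pump and of ion transporters 12 and 5, of 13 pigment cell genes 10 and 1, of 11 hair cell genes 5 and 1, of 12 photoreceptor genes 9 and 1, of 16 genes of epidermis and periderm 7 and 3, and of 21 yolk syncytial layer genes 5 and 2. Over all genes tested, 34.1% were called higher and 29.2% lower in this comparison with age. In mutants against siblings of 24 hpf, 3 of 16 epidermal genes were called higher, against 0.391% of all genes. Called lower were 3 of 26 skeletal muscle genes, 1 of 13 pigment cell genes and 1 of 16 genes of the axon initial segment. Of all genes 0.44% were called lower. None of the 64 comparisons of list means passed adjustment of the exact permutation test, and the smallest adjusted p was 0.0508. That was the value of every comparison at 0.0286, the smallest exact p of 4 against 4 libraries, such as the neuron list with age. Not passing is therefore no sign that a list stayed unchanged.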
